A study of Homo sapiens with 54 samples.

Results

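Macrophages differentiated from H1, a human embryonic stem cell line, in 3D culture were sampled on successive days, and the step described here is day 19 (3 libraries) against day 16 (3 libraries) without FBS. These 6 libraries were chosen by their labels alone, out of 54 samples in the series and 32 bulk RNA libraries in 11 groups. Both groups share the cell line, the 3D protocol, the cell type label macrophage, the absence of FBS from the label and the assay, polyA RNA made into SMART-seq2 libraries. Day 19 and day 16 with FBS (3 libraries each) and 3D days 12 (4 libraries) and 23 (3 libraries) without FBS are given beside this step where they bear on it. All groups come from 1 cell line, and the labels do not describe the libraries as separate cultures, so the p-values below measure only the spread between these samples.

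A cell that divides copies its DNA in S phase and then builds a spindle, attaches chromosomes to it at kinetochores and splits in mitosis, and many of the genes for these tasks are switched on together late in the cycle. Macrophages of adult tissues can renew themselves by division. Immediate early genes are transcription factors and feedback regulators that respond within minutes to growth factors, danger signals or handling, and in macrophages they run ahead of cytokine genes.

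Values are TPM, the usual level scaled to transcript length and to the library's total, and a change is the difference of mean log2(TPM + 1), day 19 minus day 16. Between 12009 and 12417 genes reached 1 TPM in day 19 libraries and between 12317 and 12451 in day 16 libraries. No read totals come with the TPM values, so the depth is unknown. The 15 markers that define macrophages, such as CD68, CD14, CSF1R and C1QA, were all measured above 1 TPM on average, and their summed level was 14192 to 15145 TPM at day 19 and 17272 to 19199 TPM at day 16. Genes known only by genomic clone names (FP236383.2, FP236383.3 and FP671120.3) took 12.8, 20.2 and 21.3% of the TPM in day 19 libraries and 16.3, 20.5 and 12.5% in day 16 libraries, which leaves less for other genes. Replicates correlated at 0.906 to 0.930 within day 19 and 0.929 to 0.931 within day 16, and libraries of the 2 days at 0.904 to 0.920.

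Of 12669 genes with a mean of at least 1 TPM, 42 rose (0.332%) and 41 fell (0.324%) at day 19 at an adjusted p below 0.05 (limma, Benjamini-Hochberg over all genes tested), and 1483 had an unadjusted p below that level. Mitosis genes gave 14 of the increases and immediate early genes 10 of the decreases. In all 83 the day 19 libraries lay wholly above or wholly below the day 16 libraries, as they did in 5.51% (above) and 12.0% (below) of all genes. The median change of all genes was -0.13. Median-ratio scaling, which brings the typical gene to one level in every library, brought that median to -0.01 and the split to 60 up and 26 down, with 64 of the 83 calls kept. A fit with a block for the replicate number kept 29 of the 83. Most calls rested on having all 3 libraries of each day. Leaving out day 19 replicate 1, 2 or 3 gave 30, 5 and 12 genes up and 57, 3 and 11 down, and leaving out day 16 replicate 1, 2 or 3 gave 8, 9 and 27 up and 3, 7 and 7 down. AL031729.1, STMN1, EGR1, CH25H, MARCO and PVALB kept their calls in each of these 6 fits, and none of the 83 changed direction in any. The calls of KIF23, CCNB2, FOXM1, GTSE1, KIF2C, EGR3, NR4A2 and XBP1, among others, were lost in each of the 6.

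**Figure D1:**
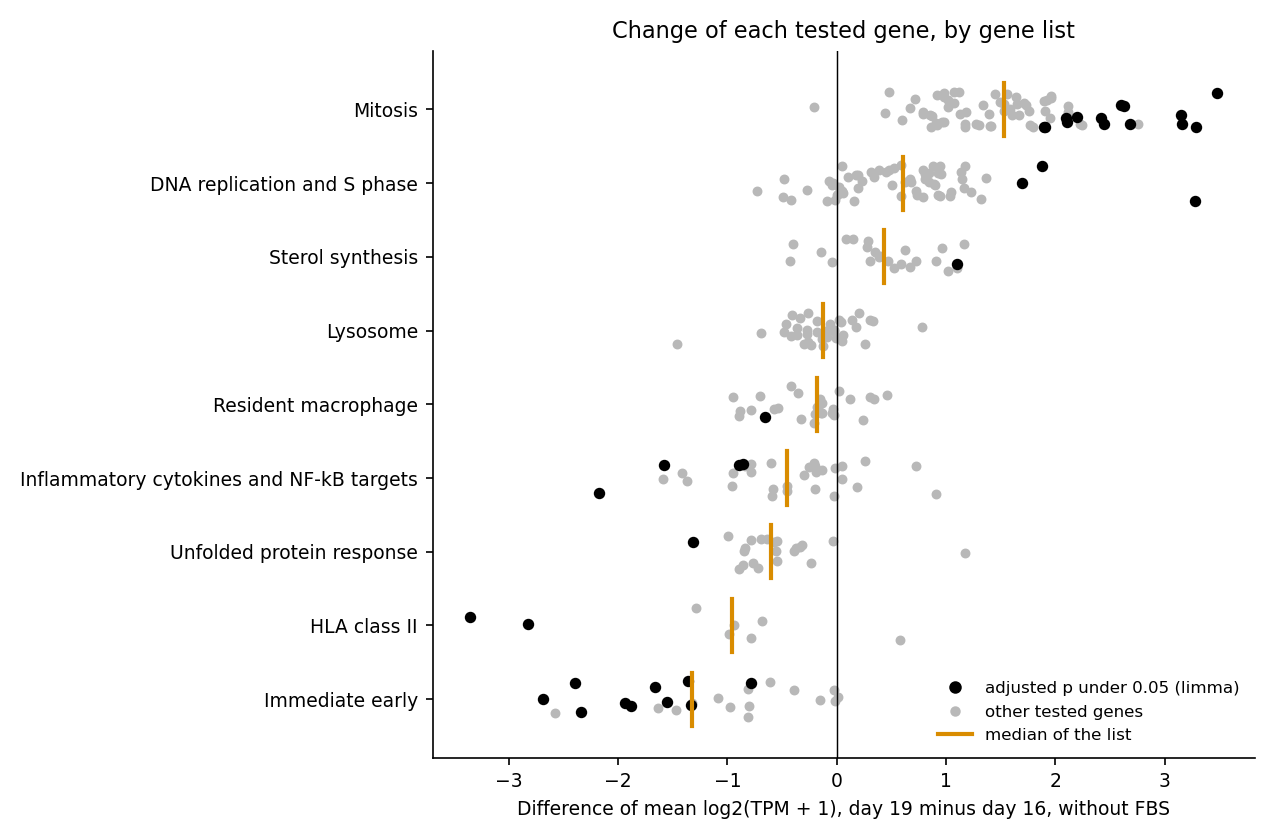
Change of each tested gene of 9 lists (x axis, difference of mean log2(TPM + 1), day 19 minus day 16 without FBS), with genes at an adjusted p below 0.05 in black, other tested genes in grey and the list median as an orange bar. Mitosis genes lie almost wholly right of 0 with a median of 1.53, and immediate early genes almost wholly left of it with a median of -1.33.

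Mitosis genes rose or stood higher at day 19 in every task of cell division. Of 76 listed genes 73 were tested; 14 rose, 0 fell, and 72 had a higher mean at day 19, while 37.7% of all genes did. In 61 every day 19 library exceeded every day 16 library, against 5.51% of all genes. The median change was 1.53, against -0.13 for all genes. The increases were spread over all tasks of mitosis: 3 of 18 kinases, cyclins and transcription factors rose (median 1.59), 2 of 8 checkpoint and anaphase genes (1.67), 3 of 16 kinetochore genes (1.58), 2 of 11 genes of chromosome structure (1.71) and 4 of 20 genes of the spindle and cytokinesis (1.30). Without 1 library the count of calls was 8, 0 and 0 (day 19 replicates 1, 2 and 3) or 2, 0 and 10 (day 16 replicates 1, 2 and 3), while the list median stayed between 1.39 and 1.66. In bulk libraries, more dividing cells at day 19 and more of these transcripts per dividing cell cannot be told apart.

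Promoters are shown for the 4 mitosis genes with the lowest adjusted p among those with an entry in the RefSeq promoter table, because mitosis genes as a class carry characteristic promoter elements. Each is the stretch of 250 bases before the gene's start on GRCh38.p14, written 5′ to 3′ on the gene's strand: PRC1 chr15:90994536-90994785 (minus strand), SPC24 chr19:11155783-11156032 (minus), AURKB chr17:8210226-8210475 (minus) and CCNB2 chr15:59104896-59105145 (plus). Capitals mark CCAAT, the element bound by the factor NF-Y, or its reverse complement ATTGG, and TTTGAA, the core of the cell cycle genes homology region bound by the DREAM and MuvB complexes, or its reverse complement TTCAAA. 
PRC1: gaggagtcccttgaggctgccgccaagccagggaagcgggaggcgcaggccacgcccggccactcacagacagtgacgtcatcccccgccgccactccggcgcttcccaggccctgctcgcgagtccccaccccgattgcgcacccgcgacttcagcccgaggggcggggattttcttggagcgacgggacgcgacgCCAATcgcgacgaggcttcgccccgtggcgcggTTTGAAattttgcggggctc
SPC24: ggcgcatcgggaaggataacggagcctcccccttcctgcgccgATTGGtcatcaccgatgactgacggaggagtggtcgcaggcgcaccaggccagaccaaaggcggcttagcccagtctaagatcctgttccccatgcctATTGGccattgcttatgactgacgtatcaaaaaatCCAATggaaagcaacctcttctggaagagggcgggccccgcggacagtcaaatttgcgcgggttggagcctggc
AURKB: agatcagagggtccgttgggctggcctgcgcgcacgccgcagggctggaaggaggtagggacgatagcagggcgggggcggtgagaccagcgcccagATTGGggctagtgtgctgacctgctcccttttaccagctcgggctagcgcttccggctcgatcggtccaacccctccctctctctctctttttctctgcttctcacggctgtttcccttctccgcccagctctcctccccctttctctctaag
CCNB2: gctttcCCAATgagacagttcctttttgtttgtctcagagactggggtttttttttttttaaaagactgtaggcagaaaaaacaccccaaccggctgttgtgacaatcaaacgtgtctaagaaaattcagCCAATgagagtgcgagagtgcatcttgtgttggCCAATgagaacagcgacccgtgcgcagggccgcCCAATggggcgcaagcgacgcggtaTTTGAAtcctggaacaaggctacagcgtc
PRC1 has 1 CCAAT and 1 TTTGAA, SPC24 has 3 CCAAT and no TTTGAA, AURKB has 1 CCAAT and CCNB2 has 4 CCAAT followed by 1 TTTGAA, with no marked match overlapping another.

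Over windows from 250 bases before to 50 after the start, 64 of the 73 tested mitosis genes matched the table. CCAAT was present in 71.9% of them on either strand and TTTGAA in 68.8%. The shares among the 9287 of 12669 tested genes with a window were 37.1 and 9.69%, and among all 27305 windows 35.7 and 15.4%. Both together occurred in 53.1% of mitosis windows, 4.13% of those of tested genes and 6.08% of all. The E2F-type motif TTCCCGC was in 14.1% of mitosis windows and 10.2% of those of tested genes, and the AP-1-type motif TGANTCA in 0 of 64 and 4.45%. A match describes letters only. The mitosis list was chosen by function, and these shares would hold whatever the genes did between the days.

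UBE2C, which hands ubiquitin to the anaphase-promoting complex so that mitotic cyclins are destroyed, had 81.8, 142 and 116 TPM in the day 19 libraries, against 7.42, 8.85 and 22.7 TPM in the day 16 libraries. The lowest day 19 value is above the highest day 16 value by more than the whole day 16 range (log2 change 3.15 ± 0.38 SE, adjusted p = 0.011 by limma). TPX2 (ENSG00000088325, chromosome 20, 31739290 to 31801800 on GRCh38.p14), which activates the kinase AURKA and nucleates spindle microtubules, had 26.4, 27.2 and 27.7 TPM at day 19, against 2.67, 2.11 and 6.39 TPM at day 16. The day 19 libraries lie within a narrow band, and day 16 replicate 3 is the highest of its group (log2 change 2.68 ± 0.35 SE, adjusted p = 0.014). AURKB, the kinase of the chromosomal passenger complex, had 58.4, 60.9 and 90.9 TPM at day 19, against 1.4, 9.5 and 8.58 TPM at day 16. The groups do not overlap, and day 16 replicate 1 is the low outlying value (log2 change 3.48 ± 0.51 SE, adjusted p = 0.022). BIRC5 (survivin), another subunit of that complex, had 20.9, 21.8 and 28.5 TPM, against 3.25, 5.6 and 5.64 TPM at day 16, again without overlap (log2 change 2.10 ± 0.29 SE, adjusted p = 0.019).

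Genes of the spindle midzone and cell division moved the same way. PRC1, which bundles midzone microtubules, had 32.9, 46.9 and 63.0 TPM at day 19, against 8.22, 7.29 and 13.1 TPM at day 16. Every day 19 value exceeds 2 times the highest day 16 value (log2 change 2.20 ± 0.31 SE, adjusted p = 0.021). KIF23, the motor subunit of the centralspindlin complex, had 10.2, 4.71 and 10.5 TPM, against 0.23, 0.31 and 0.92 TPM at day 16. All 3 day 16 libraries are below 1 TPM (log2 change 2.63 ± 0.43 SE, adjusted p = 0.035). ECT2, the exchange factor that centralspindlin recruits to the cell cortex, was the 1 tested member with a lower mean, with 4.87, 2.91 and 2.6 TPM at day 19 against 2.44, 4.25 and 6.05 TPM at day 16. Its groups overlap (log2 change -0.21, adjusted p = 0.89 by limma).

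Kinetochore and chromosome genes gave the same picture. SPC24, a subunit of the NDC80 complex that grips microtubules, had 23.8, 19.96 and 21.1 TPM at day 19, against 1.08, 3.75 and 4.16 TPM at day 16 (log2 change 2.61 ± 0.38 SE, adjusted p = 0.021). The lowest day 19 library is well above the highest day 16 library. Its partner SPC25 was nearly silent at day 16, with 0, 0.98 and 0 TPM, and had 5.22, 5.4 and 7.01 TPM at day 19 (adjusted p = 0.049), a call lost with a pseudocount of 0.1 and in each of the 6 fits that left out a library. TOP2A, which untangles sister chromatids, had 30.4, 55.2 and 112 TPM at day 19, against 2.91, 10.1 and 5.42 TPM at day 16. Day 19 replicate 3 is highest and the spread within day 19 is wide, yet the groups do not overlap (log2 change 3.16 ± 0.50 SE, adjusted p = 0.028). CENPM and KIF2C, a kinetochore component and a microtubule depolymerase, also rose (log2 changes 2.42 and 2.11).

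**Figure D2:**
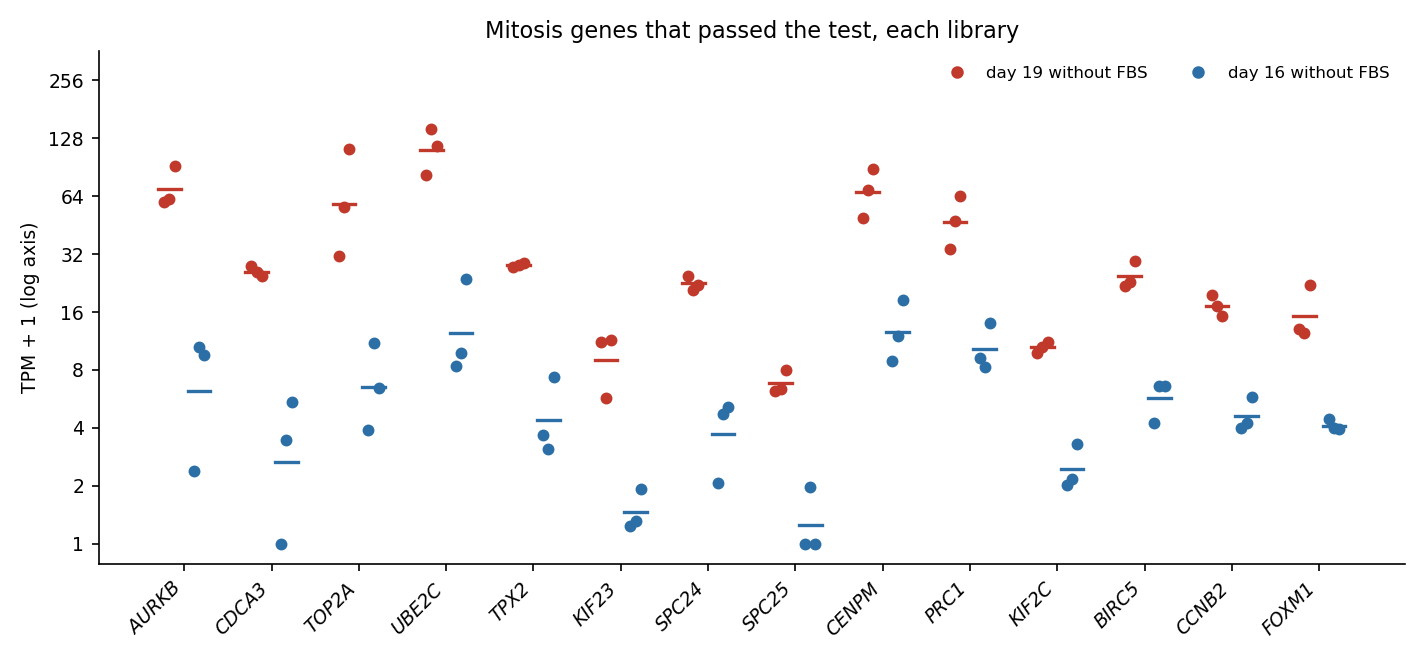
TPM + 1 on a log axis for the 14 mitosis genes at an adjusted p below 0.05, with 1 point per library (day 19 in red, day 16 in blue) and the mean on the log scale as a bar. In each gene the 3 day 19 points lie above the 3 day 16 points, from UBE2C at 81.8, 142 and 116 TPM to SPC25 at 5.22, 5.4 and 7.01 TPM.

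The regulators of mitotic entry were less even. CCNB2, a B-type cyclin, had 18.6, 16.3 and 14.2 TPM at day 19, against 2.98, 3.24 and 4.82 TPM at day 16 (log2 change 1.90 ± 0.29 SE, adjusted p = 0.024), and CDCA3, which helps degrade the CDK1 inhibitor WEE1, had 26.6, 24.7 and 23.7 TPM, against 0, 2.46 and 4.47 TPM (log2 change 3.29 ± 0.55 SE, adjusted p = 0.036). Neither gene's groups overlap, and the CDCA3 call was lost with a pseudocount of 0.1. FOXM1, the transcription factor that drives many of these genes, had 12.1, 11.4 and 21.1 TPM, against 3.44, 2.99 and 2.93 TPM, with day 16 values close together and far below (log2 change 1.90 ± 0.32 SE, adjusted p = 0.04). The marker MKI67, at 11.5, 14.04 and 20.3 TPM against 2.15, 1.16 and 4.75 TPM, just missed the threshold (log2 change 2.23, adjusted p = 0.051 by limma), as did CCNA2 and CDC20 (adjusted p = 0.051 and 0.051). CDK1, the kinase of mitotic entry, had 55.8, 25.6 and 28.3 TPM at day 19 against 12.2, 6.13 and 14.3 TPM at day 16, and its partner CCNB1 had 59.8, 58.1 and 19.9 TPM against 9.7, 6.58 and 17.04 TPM. Their groups do not overlap, but neither passed the test, with log2 changes of 1.65 and 1.89 and adjusted p of 0.1 and 0.12. Under median-ratio scaling MKI67, CCNA2, PLK1 and PTTG1 also pass, and 20 mitosis genes rise.

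The level at day 19 lay between those of day 16 and of day 12, an earlier day of the same 3D protocol. The mean log2(TPM + 1) of the 76 mitosis genes was 4.09 ± 0.127 at day 12 (SD, n = 4), 2.01 ± 0.272 at day 16, 3.55 ± 0.0446 at day 19 and 2.64 ± 0.134 at day 23 (SD, n = 3 each). With FBS it was 2.29 ± 0.130 at day 16, 2.40 ± 0.306 at day 19 and 1.94 ± 0.521 at day 23. The level without FBS was thus high, low, higher and lower again over the 4 days, with no overlap of libraries between any successive pair. In the comparison of day 19 with day 12, which shares the day 19 libraries, 21 of 75 tested mitosis genes were lower at day 19 and 0 higher (background 11.8% lower and 10.5% higher, limma), with a median of -0.54. UBE2C was among those still lower, at 113 ± 30.0 TPM at day 19 and 270.2 ± 40.4 TPM at day 12 (log2 change -1.27, adjusted p = 0.014), and so was CCNB2 (log2 change -1.44, adjusted p = 0.0013). AURKB, at 70.1 ± 18.1 and 134 ± 13.7 TPM, and TOP2A, at 65.8 ± 41.7 and 66.6 ± 26.3 TPM, did not pass in that comparison (adjusted p = 0.13 and 0.89).

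**Figure D3:**
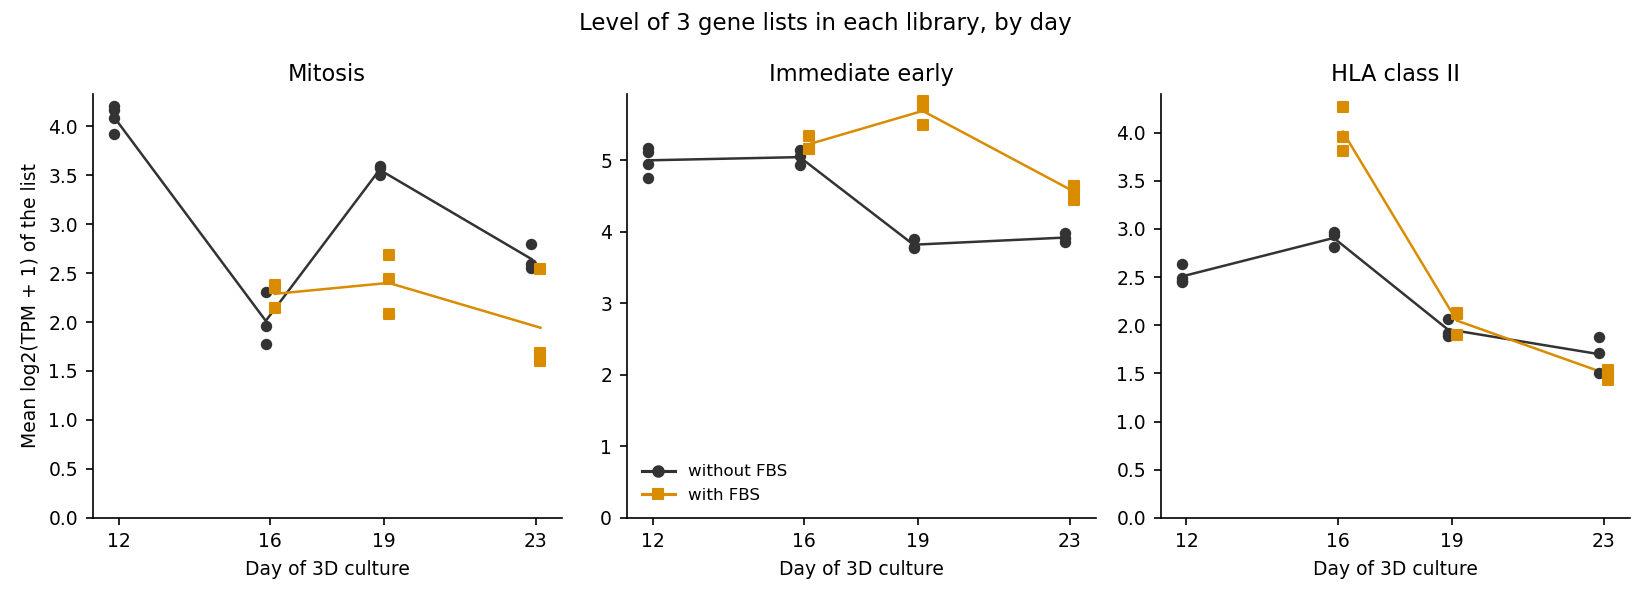
Mean log2(TPM + 1) of 3 gene lists (y axis) by day of 3D culture (x axis), with 1 point per library and lines joining group means, without FBS (black circles) and with FBS (orange squares). Without FBS the mitosis genes lie at 4.09 at day 12, 2.01 at day 16, 3.55 at day 19 and 2.64 at day 23, while the immediate early genes lie at 5.05 at day 16 and 3.82 at day 19.

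DNA replication genes had a smaller median change. Of 62 tested, 3 rose and 0 fell, with a median of 0.61, and 51 were higher at day 19, against 37.7% of all genes. All 3 that rose make the building blocks of DNA. RRM2, the regulated subunit of ribonucleotide reductase, had 113, 151 and 139.6 TPM at day 19, against 5.88, 27.4 and 12.7 TPM at day 16 (log2 change 3.28 ± 0.43 SE, adjusted p = 0.014 by limma). The lowest day 19 library exceeds the highest day 16 library by about 4 times. TYMS, which makes thymidylate, had 59.8, 57.9 and 53.5 TPM at day 19, against 14.1, 18.9 and 18.2 TPM at day 16, and TK1, the salvage kinase for thymidine, had 71.4, 87.5 and 113 TPM, against 13.99, 37.0 and 24.5 TPM. Neither pair of groups overlaps (log2 changes 1.69 and 1.88, adjusted p = 0.012 and 0.043), and the TK1 call was lost under median-ratio scaling. In all 7 genes of nucleotide supply every day 19 library was above every day 16 library, against 5.51% of all genes (median 0.85). Of 17 genes of origin licensing and the replicative helicase 0 passed by limma, with 4 at an unadjusted p below 0.05 (median 0.50). MCM2, a helicase subunit, was at 10.4, 9.24 and 7.53 TPM against 9.04, 9.22 and 9.56 TPM, with overlapping groups (log2 change -0.04). The polymerase clamp PCNA was at 56.5, 59.7 and 73.2 TPM, against 27.2, 39.1 and 30.2 TPM, above in each library but not past the threshold (log2 change 0.96, adjusted p = 0.098). DNMT1, the maintenance DNA methyltransferase, went the other way without passing, at 131, 137 and 163 TPM against 239, 269.6 and 208 TPM (log2 change -0.73, adjusted p = 0.092).

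Other genes of dividing cells rose as well. STMN1 (stathmin), which destabilises microtubules, had 365, 295 and 301 TPM at day 19, against 90.8, 85.3 and 102 TPM at day 16, with every day 19 library over 2 times any day 16 library (log2 change 1.78 ± 0.15 SE, adjusted p = 0.0029). HMGB2, a chromatin bending protein, had 88.5, 80.8 and 72.0 TPM, against 21.3, 23.7 and 16.8 TPM (log2 change 1.92 ± 0.21 SE, adjusted p = 0.0097). Of 14 histone genes 2 rose, while 0.332% of all genes did. The mean was higher in 10, against 37.7% of all genes, and 6 were wholly above, against 5.51%. One that rose was HIST1H4C, a replication-dependent H4 gene, with 636, 846 and 1014 TPM against 193, 300 and 169 TPM (log2 change 1.93). The other was H2AFZ, which encodes H2A.Z, with 743, 588 and 676 TPM against 309, 296 and 374 TPM (log2 change 1.03). The groups of all 4 genes are separate. Histone genes have near-identical copies between which reads may be split. Among 22 tested cyclins, kinases and inhibitors of the G1 phase, only BTG2 passed, and it fell. BTG2 is an antiproliferative p53 target and an early response gene, at 53.6, 41.7 and 29.7 TPM at day 19, against 189.7, 137 and 194 TPM at day 16 (log2 change -2.05 ± 0.24 SE, adjusted p = 0.011). MYC did not pass, at 19.1, 22.8 and 12.7 TPM against 16.3, 16.7 and 19.04 TPM (log2 change 0.03). The 47 cytosolic ribosomal protein genes gave 0 calls, with 1 at an unadjusted p below 0.05 (median 0.05). Of 20 regulators of growth and self-renewal 0 rose and 2 fell, while 0.324% of all genes fell. A lower mean was seen in 13 of the 20, against 62.3% of all genes. In 5 every day 19 library was below every day 16 library, against 12.0% of all genes. The 2 that fell were KLF6 and MXD1. Both of these calls were lost under median-ratio scaling and in each fit that left out a library.

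Dividing-cell genes outside the lists were among the calls too, here named after their values were seen. PCLAF, which binds the clamp PCNA, had 131, 68.4 and 123 TPM at day 19, against 23.1, 23.7 and 16.7 TPM at day 16 (log2 change 2.25), and CDKN3, a phosphatase that acts on cyclin-dependent kinases, had 21.98, 31.9 and 32.3 TPM, against 4.64, 2.96 and 7.97 TPM (log2 change 2.32). The microtubule-binding protein GTSE1 had 14.1, 11.8 and 11.6 TPM, against 2.18, 2.74 and 1.15 TPM (log2 change 2.19), and HMGN2, a nucleosome-binding protein, had 647, 542 and 608 TPM, against 299, 242 and 301 TPM (log2 change 1.09). All 4 rose with separate groups, at adjusted p of 0.012, 0.022, 0.023 and 0.012 by limma.

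Many immediate early genes fell. Of 25 tested, 10 fell and 0 rose, 24 had a lower mean at day 19 against 62.3% of all genes, and in 19 every day 19 library was below every day 16 library (12.0% of all genes). The median change was -1.33, and -1.19 with 9 calls under median-ratio scaling. With 1 library left out the calls numbered 8, 1 and 3 (day 19 replicates 1, 2 and 3) or 2, 2 and 3 (day 16 replicates 1, 2 and 3), and the median stayed between -1.36 and -1.15. EGR1 (ENSG00000120738, chromosome 5, 138465479 to 138469303 on GRCh38.p14), a zinc finger factor of growth and stress responses, had 9.01, 14.5 and 10.4 TPM at day 19, against 81.5, 67.3 and 83.2 TPM at day 16. The groups are far apart and the call held in each fit that left out a library (log2 change -2.69 ± 0.24 SE, adjusted p = 0.0029 by limma). Its relatives EGR2 and EGR3 fell too, with 2.53, 3.27 and 2.35 TPM against 19.3, 16.6 and 17.4 TPM for EGR2 (adjusted p = 0.011) and 0.31, 0.54 and 0.14 TPM against 6.55, 6.72 and 4.77 TPM for EGR3 (adjusted p = 0.036). All 3 EGR genes were separate between the days in every library.

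Feedback regulators of the same response were among the calls. DUSP1, the phosphatase that turns off p38 and JNK, had 45.1, 53.9 and 69.7 TPM at day 19, against 164, 209 and 259 TPM at day 16 (log2 change -1.88 ± 0.22 SE, adjusted p = 0.011). ZFP36 (tristetraprolin), which destabilises cytokine mRNAs, had 141, 116 and 94.4 TPM, against 342, 208 and 373 TPM (log2 change -1.36 ± 0.24 SE, adjusted p = 0.043). In neither gene do the groups overlap. ATF3, JUNB, IER2, NR4A2 and KLF6 fell by 1.67, 1.33, 1.55, 1.94 and 0.79 on the log2 scale, and the KLF6 call was lost under median-ratio scaling. The growth factor HBEGF and the MAF relative MAFF, outside the list, fell by 1.26 and 1.48 on the log2 scale, and the MAFF call was lost under median-ratio scaling. The AP-1 subunits were uneven: FOS, the most abundant of the list at 637, 467 and 309 TPM at day 19 against 841, 690 and 863 TPM at day 16, did not pass (log2 change -0.81, adjusted p = 0.19), and JUN was level at 6.41, 9.07 and 6.23 TPM against 8.11, 4.7 and 9.12 TPM (log2 change 0.01).

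Among 32 tested inflammatory cytokines and NF-kB targets, 4 fell and 0 rose, with a median of -0.45, while 0.324% of all genes fell. The mean was lower at day 19 in 26, against 62.3% of all genes. In 10 every day 19 library was below every day 16 library, against 12.0% of all genes. Under median-ratio scaling 2 fell and the list median was -0.31. CCL3, a chemokine of activated macrophages, had 1084, 1249 and 1362 TPM at day 19, against 2056, 2285 and 2515 TPM at day 16 (log2 change -0.89 ± 0.12 SE, adjusted p = 0.014 by limma). CXCL8, an attractant of neutrophils, had 70.1, 80.9 and 51.1 TPM, against 223, 149.5 and 239.6 TPM (log2 change -1.58 ± 0.24 SE, adjusted p = 0.022). Both fell by amounts beyond the spread of their libraries, without overlap. The alarmin cytokine IL1A and the chemokine CCL4 fell by 2.17 and 0.86 on the log2 scale. CCL3 and CCL4 have near-identical copies, CCL3L1 and CCL4L2, so their values are uncertain, and both calls were lost under median-ratio scaling. IL1B and IL6 were lower without passing, IL1B at 366, 267 and 237 TPM against 577, 450.2 and 650.4 TPM (adjusted p = 0.068) and IL6 at 6.72, 14.4 and 12.8 TPM against 42.5, 27.8 and 23.9 TPM (adjusted p = 0.12).

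**Figure D4:**
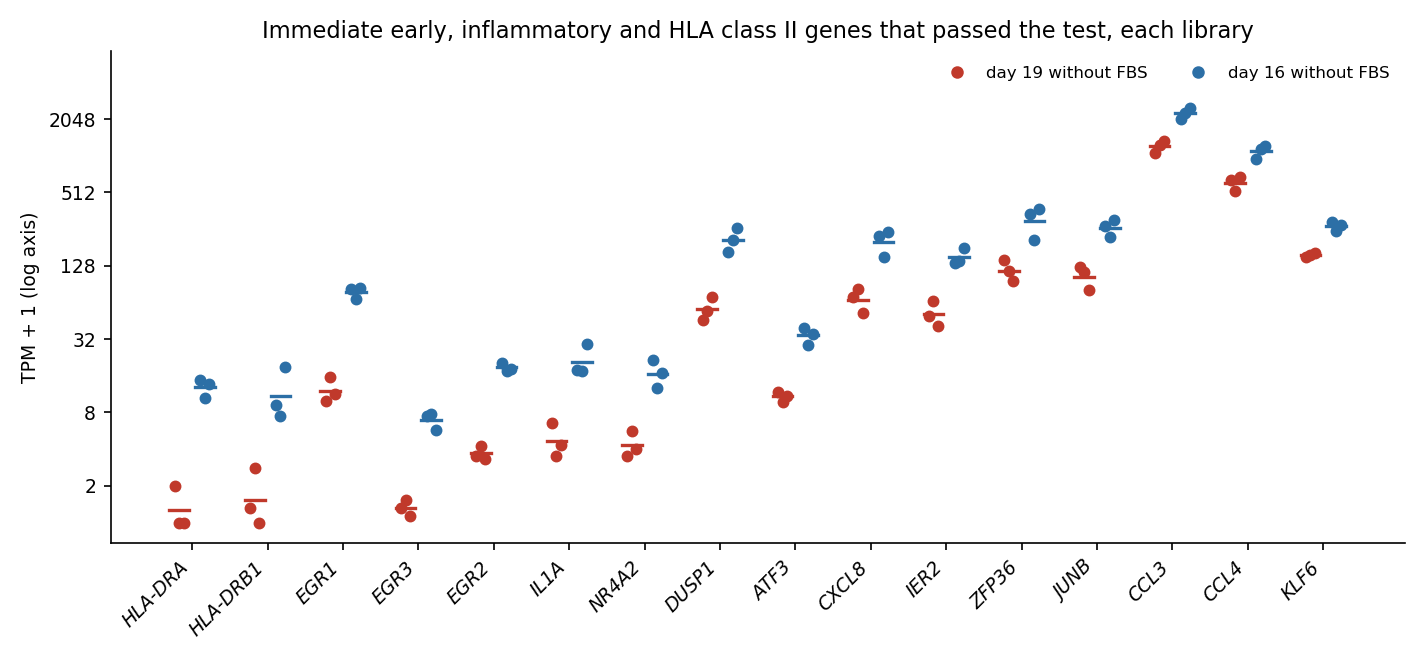
TPM + 1 on a log axis for the immediate early, inflammatory and HLA class II genes at an adjusted p below 0.05, with 1 point per library (day 19 in red, day 16 in blue) and the mean on the log scale as a bar. In all 16 genes the day 19 points lie below the day 16 points, widest apart in HLA-DRA (0.98, 0 and 0 TPM against 13.8, 9.52 and 12.7 TPM).

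Of 12 HLA class II genes, whose products present peptides to helper T cells, 8 had a mean of at least 1 TPM. Of these 2 fell and 0 rose, while 0.324% of all genes fell. In 6 all day 19 libraries were below all day 16 libraries, against 12.0% of all genes (median -0.96). HLA-DRA, the invariant DR chain, had 0.98, 0 and 0 TPM at day 19, against 13.8, 9.52 and 12.7 TPM at day 16. It is listed at 0 in 2 of 3 day 19 libraries and at 9.52 TPM or more in each day 16 library (log2 change -3.36 ± 0.41 SE, adjusted p = 0.011 by limma). HLA-DRB1, which shares sequence with HLA-DRB5, had 0.31, 1.81 and 0 TPM, against 8.23, 6.47 and 18.0 TPM (adjusted p = 0.049, lost under median-ratio scaling). CD74, the invariant chain that chaperones class II molecules, was at 287, 199.9 and 173 TPM, against 442, 401 and 438 TPM, lower in each library and just short of the threshold (log2 change -0.99, adjusted p = 0.052). The class II transactivator CIITA was at or below 0.08 TPM in all 6 libraries, under the filter. Without 1 library 2, 0 and 1 (day 19 replicates 1, 2 and 3) or 0, 0 and 0 (day 16 replicates) of these genes were called. Of 14 HLA class I and peptide loading genes 0 passed by limma, with 2 at an unadjusted p below 0.05 (median -0.10).

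Genes of protein folding in the endoplasmic reticulum were mostly lower. In the unfolded protein response list 21 of 22 genes had a lower mean at day 19, against 62.3% of all genes. In 13 every day 19 library was below every day 16 library, against 12.0% of all genes, but only XBP1 passed (median -0.60). XBP1, the transcription factor of this response, had 36.04, 40.3 and 48.8 TPM at day 19, against 83.3, 101 and 136 TPM at day 16, without overlap (log2 change -1.32 ± 0.23 SE, adjusted p = 0.04). SDF2L1, HSPA5 and CALR, a cofactor and chaperones of that compartment, had log2 changes of -0.84, -0.99 and -0.90 and did not pass. P4HB and PPIB, a disulfide isomerase and a prolyl isomerase outside the list, fell. The calls of XBP1, P4HB and PPIB were all lost under median-ratio scaling, where the list median was -0.46.

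Few macrophage identity genes passed the test. Of 15 defining markers 2 fell, TYROBP and C1QB, and 0 rose (median -0.33), while 0.324% of all genes fell. The mean was lower at day 19 in 12 of them, against 62.3% of all genes. In 6 every day 19 library was below every day 16 library, against 12.0% of all genes. Under median-ratio scaling 11 of the 15 were lower, 0 passed and the median was -0.19. Of 28 resident macrophage genes only C1QB fell, with a median of -0.18, and 10 were lower at an unadjusted p below 0.05 by limma. In that list 22 had a lower mean, against 62.3% of all genes. In 10 every day 19 library was below every day 16 library, against 12.0% of all genes. Under median-ratio scaling 18 were lower and the list median was -0.03. Of 37 lysosome genes 0 passed by limma, with 4 at an unadjusted p below 0.05 (median -0.13). TYROBP, the adaptor of TREM2 and related receptors, had 3838, 4218 and 3999 TPM at day 19, against 5247, 5325 and 5592 TPM at day 16, a small change (log2 -0.42, adjusted p = 0.04), and C1QB, a chain of complement C1q, had 1078, 956 and 879.9 TPM, against 1462, 1437 and 1695 TPM (log2 -0.66, adjusted p = 0.041). Both are separate between the days, and both calls were lost under median-ratio scaling, as were those of TREM2 (log2 change -0.75) and IFITM3 (log2 change -0.63). The macrophage transcription factors MAF and SPI1 did not pass, with log2 changes of -0.13 and -0.37. Nor did the resident macrophage genes CD163, SELENOP, LYVE1 and TIMD4 (log2 changes -0.17, -0.03, -0.16 and 0.12), whose groups overlap.

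Single genes of macrophage state moved both ways. MARCO, a scavenger receptor for bacteria and particles, had 367, 382 and 358 TPM at day 19, against 117, 140 and 106 TPM at day 16 (log2 change 1.61 ± 0.15 SE, adjusted p = 0.0031 by limma). Its day 19 libraries are close together and more than 2 times as high as any day 16 library, and its mean was 39.4 TPM at day 12 and 1213 TPM at day 23. The secreted proteins CHI3L1, MMP9 and RETN and the calcium-binding proteins S100A9 and S100A4 also rose, but the S100A4 call was lost under median-ratio scaling and the MMP9 call in a fit of 13 libraries. CHI3L1, a chitinase-like protein, had 781, 675 and 587 TPM, against 295, 329 and 385 TPM (log2 change 1.01), and RETN (resistin) had 1129.7, 1489 and 1720.3 TPM, against 596, 685 and 645 TPM (log2 change 1.15). S100A9, which forms calprotectin with S100A8, had 1754, 1726 and 1828 TPM, against 1127, 1207 and 1132 TPM (log2 change 0.61), while S100A8 itself did not pass (log2 change -0.12). CAPG, an actin filament capping protein, had 526, 475 and 542 TPM, against 225, 267 and 338 TPM (log2 change 0.91). All of these risers are separate between the days. SPP1 (osteopontin), the most abundant of the genes that fell, had 9194, 6383 and 5403 TPM at day 19, against 12510.1, 12716 and 15310.3 TPM at day 16, without overlap (log2 change -0.98, adjusted p = 0.04).

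Sterol synthesis genes were mostly higher, while an oxysterol enzyme fell. Of 24 sterol synthesis genes 20 had a higher mean at day 19, against 37.7% of all genes, and 1 rose (median 0.43). In 11 every day 19 library was above every day 16 library, against 5.51% of all genes. Under median-ratio scaling 4 rose. FDPS, which makes farnesyl diphosphate, had 286, 264 and 278 TPM at day 19, against 128, 115 and 143 TPM at day 16, with every day 19 library well above (log2 change 1.10 ± 0.14 SE, adjusted p = 0.014 by limma). ACAT2 and FDFT1 had similar log2 changes, 1.16 and 1.02, and did not pass (adjusted p = 0.076 and 0.089). CH25H, which makes 25-hydroxycholesterol, an inhibitor of sterol synthesis and of viral entry, had 20.2, 21.98 and 21.97 TPM at day 19, against 92.8, 93.8 and 86.0 TPM at day 16. Its 2 groups are tight and far apart, and the call held in each fit that left out a library (log2 change -2.04 ± 0.18 SE, adjusted p = 0.0029). GPR183, the receptor for an oxysterol made from that product, had 13.1, 9.36 and 9.63 TPM, against 56.4, 30.0 and 53.3 TPM, and fell as well (log2 change -1.99 ± 0.29 SE, adjusted p = 0.022).

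Some of the largest changes were in genes of low level. SLC2A5, a fructose transporter, had 1.31, 0.54 and 1.2 TPM at day 19, against 18.8, 21.9 and 11.2 TPM at day 16, and MATK, a kinase that restrains SRC family kinases, had 0.82, 1.58 and 3.31 TPM, against 13.7, 20.2 and 39.4 TPM (log2 changes -3.16 and -3.09, adjusted p = 0.011 and 0.021 by limma). APOBEC3B, a DNA cytidine deaminase that shares sequence with APOBEC3A, had 28.5, 17.7 and 15.8 TPM, against 0.63, 2.53 and 0.98 TPM (log2 change 3.22, adjusted p = 0.011). None of these 3 genes has overlapping groups. The interferon-induced gene IFI27 had 13.97, 11.8 and 13.9 TPM, against 0, 1.99 and 0 TPM (adjusted p = 0.021, lost with a pseudocount of 0.1). Of 30 tested interferon response genes it was the 1 that rose, and IFITM3 the 1 that fell (median 0.22). PVALB (parvalbumin), a calcium buffer, and AL031729.1, a gene known by its clone name, are listed at 0 in all 3 day 16 libraries. They had 28.3, 10.6 and 15.5 TPM and 30.4, 58.9 and 22.03 TPM at day 19 (adjusted p = 0.0051 and 0.0029), and AL031729.1 is also listed at 0 in all 6 libraries with FBS and in 2 of 4 day 12 libraries. TYMSOS, antisense to TYMS, was listed at 0 in all 3 day 16 libraries too and had 2.69, 7.24 and 8.72 TPM at day 19 (adjusted p = 0.047), a call lost with a pseudocount of 0.1 and under median-ratio scaling. Whether strand was used is not stated, so reads of TYMS and TYMSOS cannot be told apart.

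Markers of other cell types were also summed, and 1 library stood apart. Of 12 such lists with a tested member, 11 had 0 calls by limma, with 7 genes at an unadjusted p below 0.05, and the osteoclast list had 1, MMP9. The summed level of 14 mast cell, basophil and eosinophil markers was 84.5 to 999 TPM at day 19 and 64.2 to 141 TPM at day 16. All 8 tested members had a higher mean at day 19 and 0 passed, 0 of them at an unadjusted p below 0.05, and PRG3 and KIT are listed at 0 in all 6 libraries. Most of the day 19 sum lay in replicate 1, where CLC, the Charcot-Leyden crystal protein, was at 639, 5.75 and 5.97 TPM in replicates 1, 2 and 3, against 0, 0 and 22.8 TPM at day 16, and the granule protein PRG2 at 121, 0 and 4.77 TPM, against 0, 0.52 and 0 TPM. Without that library 30 genes rose, 8 of them mitosis genes, and 57 fell, with a mitosis median of 1.46 and an immediate early median of -1.16. Neutrophil and granulocyte progenitor markers summed to 34.2 to 90.1 TPM at day 19 and 25.1 to 29.4 TPM at day 16, with MPO, ELANE and 7 other genes listed at 0 in all 6 libraries. Erythroid markers summed to 21.3 to 26.4 TPM at day 19 and 34.1 to 56.7 TPM at day 16, with HBA1 and 12 others at 0. Of the 3 tested, KLF1, TFRC and EPOR, 2 had a higher mean at day 19 and 1 a lower one. Their log2 changes ran from -1.27 to 0.33. Osteoclast markers summed to 240.2 to 324 TPM at day 19 and 149.0 to 173 TPM at day 16. Of 6 tested osteoclast markers, 3 had a higher mean at day 19 and 3 a lower one. Only in 1, MMP9, was every day 19 library above every day 16 library. Megakaryocyte markers summed to 6.44 to 12.2 TPM at day 19 and 8.09 to 19.5 TPM at day 16, and COL1A1, AFP, ALB, NANOG and SOX2 are listed at 0 in all 6. These sums overlap between the days for mast cell and megakaryocyte markers and not for the other 3 lists, and the part of these cells in the changes above was not tested.

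The step from day 16 to day 19 was also measured with FBS, in other libraries. Of 13583 genes tested, 14 were higher (0.103%) and 17 lower (0.125%) at day 19 with FBS than at day 16 with FBS, and 4 were called in both steps, CH25H, HLA-DRA, HLA-DRB1 and SPP1, all lower. They are 4.82% of the 83 genes called without FBS and 12.9% of the 31 called with FBS. CH25H had 5.04, 5.68 and 6.2 TPM at day 19 with FBS, against 26.3, 32.6 and 28.6 TPM at day 16 with FBS (log2 change -2.18, adjusted p = 0.025 by limma). HLA-DRA had 3.37, 4.58 and 2.5 TPM, against 60.3, 64.6 and 62.5 TPM (log2 change -3.85, adjusted p = 0.0024). Leaving out 1 library gave 0 to 4 genes higher and 0 to 10 lower with FBS, and without day 16 with FBS replicate 2 none of the 8 genes with the lowest p, HLA-DRA among them, kept its call. Both genes had separate groups in either medium, and 4 of 9 tested HLA class II genes fell with FBS (median -2.40). Of 66 mitosis genes tested with FBS 0 passed by limma, with 2 at an unadjusted p below 0.05 and a median of 0.14. AURKB, for one, averaged 26.3 ± 4.38 TPM at day 19 with FBS and 23.5 ± 12.3 TPM at day 16 with FBS (SD, n = 3 each), a log2 change of 0.30 (adjusted p = 0.82).

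The difference between the steps was tested directly, as the change without FBS minus the change with FBS in a fit of all 12 libraries. Of 13390 genes, 32 had a higher change without FBS (0.239%) and 64 a lower one (0.478%). Immediate early genes gave 11 of these calls, all lower, among 25 tested (median difference -1.47). EGR1 was at 169.6, 157 and 213 TPM at day 19 with FBS, against 124, 138 and 148 TPM at day 16 with FBS, above in each library, while without FBS it fell (difference -3.07, adjusted p = 0.0007 by limma). IER2 and KLF6 differed by -2.15 and -1.45 (adjusted p = 0.004 and 0.0036). FOSB passed in the other direction with FBS, at 212, 238 and 211 TPM, against 65.5, 72.9 and 58.2 TPM, and differed between the steps by -3.06.

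Of 73 mitosis genes 70 had a higher change without FBS (median difference 1.38), against 47.2% of all genes, but only KIF23 passed (difference 3.06, adjusted p = 0.044). For AURKB the difference was 3.18 with an adjusted p of 0.067, and for TPX2 2.54 with 0.058. Of 14 histone genes 3 passed, with HIST1H4C and H2AFZ differing by 2.05 and 1.71, and outside that list HMGB2 and STMN1 differed by 2.32 and 1.93 (adjusted p = 0.0062, 0.0078, 0.0036 and 0.039). HMGB2, at 56.4, 51.8 and 42.8 TPM at day 19 with FBS against 70.1, 67.0 and 61.8 TPM at day 16 with FBS, was lower in each day 19 library with FBS and higher in each day 19 library without it. Of 22 unfolded protein response genes 4 had a lower change without FBS (median difference -0.68), with HSPA5 and CALR among them at -1.43 and -1.59. Leaving out 1 library gave 30 to 82 differing genes, and EGR1, KLF6, AL031729.1, HMGB2, ZFP36L1, CCL3, SNCG and IER2, the 8 with the lowest p, passed in each of these fits.

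**Figure D5:**
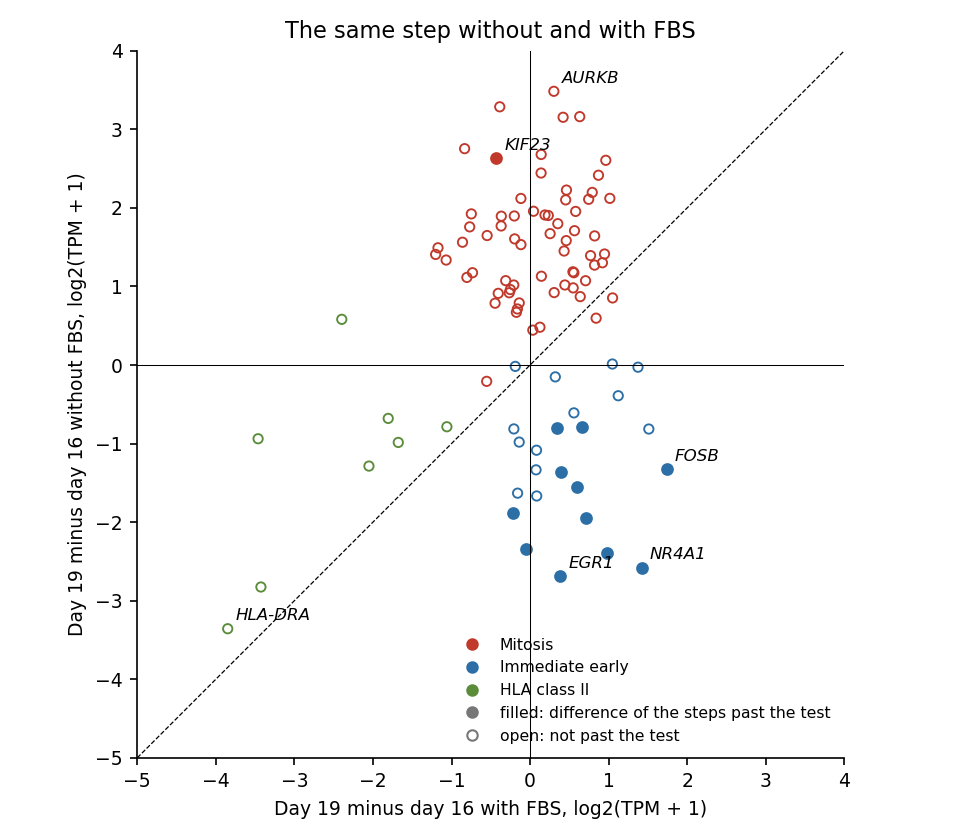
Change from day 16 to day 19 without FBS (y axis) against the change with FBS (x axis), both as differences of mean log2(TPM + 1), for mitosis (red), immediate early (blue) and HLA class II (green) genes, filled where the 2 changes differ at an adjusted p below 0.05 and with equal changes on the dashed line. Most mitosis genes sit above the line, with a median of 1.53 without FBS and 0.14 with FBS, and 11 immediate early genes sit filled below it.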

How the data were processed

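Bulk RNA libraries were made with SMART-seq2 from polyA RNA, per the labels' protocols. The authors deposited 1 table of 58735 genes and 32 libraries whose values are TPM. The submitters' processing notes list HISAT2, HTSeq 0.11.1, Trim Galore 0.4.4 and hg38. Which tool made the TPM values, and with what strand setting, is not stated. TPM values keep no depth, so no count test, interval or floor was computed, and the number of libraries limits the precision.

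Samples were grouped by their titles. For each comparison, genes with a mean of at least 1 TPM over its libraries were tested on log2(TPM + 1), which understates changes of low genes, with limma 3.58.1 (lmFit, eBayes with trend) in R 4.3.3 and Benjamini-Hochberg adjustment at 0.05, after a test on simulated data. The difference between the steps was an interaction over 12 libraries. The comparison of day 19 with day 12 used 1 fit of the libraries without FBS from days 12, 16 and 19. A fit of the 13 libraries without FBS from days 12 to 23 was an alternative for day 19 against day 16. Genes were named as up to 14 of the largest changes in each direction among calls whose groups were separate and whose higher mean reached 5 TPM, the 5 lowest adjusted p of a list, a set of well-known members and the 8 lowest p in the other comparisons; any other gene in the text was named after its values were seen. A result that the rule would name is not reported here. The 54 lists and the members were chosen with earlier results of these data known. Gene positions and promoters came from RefSeq on GRCh38.p14, where 40242 genes of the table matched. No 2 libraries held identical values. Alternatives were another pseudocount, filter, library scaling, sample set, array weights, a replicate block and leaving out each library.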

Additional observations from a re-analysis of the deposited data

Results flagged for a closer look

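In 2 genes a day 12 library stood apart from the other 3, by the gap to its neighbour as a share of the range, replicate 2 for UBE2C and replicate 3 for TYMS. The share was 0.852 for UBE2C, with 297, 210.1, 289 and 284 TPM, and 0.880 for TYMS, with 88.2, 91.4, 139.5 and 94.4 TPM. Of 16 genes and 6 lists examined this way, chance would set apart about 1 in 20.

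The step without FBS differed from the step with FBS, by limma's interaction at an adjusted p below 0.05, in 37 of 148 genes named or called here, against 0.239% higher and 0.478% lower of all 13390 tested. The 148 include the calls of the step without FBS and the 8 lowest p of this same test, so nothing is read from their share. Values are log2 changes without FBS minus log2 changes with FBS. Higher changes without FBS were found for genes of dividing cells, with KIF23 at 3.06, HMGB2 at 2.32, HIST1H4C at 2.05, STMN1 at 1.93 and H2AFZ at 1.71. APOBEC3B differed by 3.64, IFI27 by 3.30, ADAMDEC1 by 2.63, MT-ATP8 by 2.52 and S100A9 by 0.72. AL031729.1 differed by 5.13, a fitted value that depends on the pseudocount, since the gene is listed at 0 in 9 of the 12 libraries.

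Lower changes without FBS were found for the immediate early genes NR4A1 (-4.00), EGR3 (-3.38), EGR1 (-3.07), FOSB (-3.06), NR4A2 (-2.65), EGR2 (-2.29), IER2 (-2.15), ZFP36 (-1.76), DUSP1 (-1.67), KLF6 (-1.45) and IER3 (-1.15). They were also found for MAFF (-2.72), NFKBID (-2.50), ZFP36L1 (-1.90), BTG2 (-1.85), HBEGF (-1.59), the cytokine genes IL1A (-2.64) and CCL3 (-1.45), and the folding genes SDF2L1 (-1.67), CALR (-1.59), HSPA5 (-1.43) and P4HB (-1.20). SNCG, THBS1, RFLNB and TREM2 differed by -3.29, -2.67, -1.74 and -1.04.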

How the results depend on the processing

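Of the 83 calls between day 19 and day 16 without FBS, 76 were kept with a pseudocount of 0.1 and 64 under median-ratio scaling. A fit of 13 libraries kept 76, array weights 83 and leaving out the clone genes 82. The replicate block kept 29 and lost 54. At a mean TPM of at least 5, 74 of 79 were kept, and with no filter 6. None reversed in any alternative. With 42 up, 41 down and 14 mitosis genes up as reported, the counts were 4, 2 and 0 with no filter, 117, 121 and 41 in the fit of 13 libraries, and 134, 206 and 38 with array weights. Scaling gave 26 genes down, and the TPM filter of 5 gave 67 down. Leaving out 1 library gave 5 to 30 up, 3 to 57 down and 0 to 10 mitosis genes up, and kept 55, 7, 19, 11, 15 and 29 of the 83 (day 19 replicates 1 to 3, then day 16 replicates 1 to 3). With FBS, pseudocount 0.1 gave 8 up and 9 down, and leaving out 1 library 0 to 4 up and 0 to 10 down. The step difference of 96 genes became 30 to 82 with 1 library left out, and the day 19 against day 12 counts 987 to 1359 up and 1121 to 1529 down. The causes were not tested. Between equal replicate numbers, deviations correlated at 0.05, 0.02 and -0.04, and between unequal numbers at -0.098 to 0.081. With 3 libraries per day these values cannot show whether the numbers mark shared cultures or batches, and the labels do not say. With the replicate block the counts were 19 up, 12 down and 7 mitosis genes, with FBS 4 up and 7 down, and 47 step differences.

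Uncalled genes near 0 changed sign. Scaling gave 0.0879 for MCM2, 0.0061 for MAF, 0.0166 for S100A8 and 0.11 for SELENOP, and array weights gave 0.0893 for S100A8 and -0.14 for TIMD4. With 1 library left out the ranges were -0.14 to 0.0737 for MCM2, -0.15 to 0.26 for MYC, -0.34 to 0.0042 for CD163, -0.32 to 0.10 for S100A8, -0.0796 to 0.38 for TIMD4, -0.43 to 0.30 for SELENOP, -0.37 to 0.0173 for LYVE1, -0.48 to 0.0355 for ECT2 and -0.24 to 0.18 for JUN. Unknown depth limits every value under about 1 TPM, where 0 may be a failed estimate.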
